A study of Mus musculus with 13 samples.

Results

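Control cells of the mouse neuroblastoma line Neuro2a were compared between passage 6 and passage 1 after a routine thaw. The members were the 3 control libraries of each passage, 6 of the 13 poly(A) RNA-seq libraries of the study, chosen by the treatment and passage in their labels. Control vials were frozen in 10% DMSO, a cryoprotectant, and stayed in regular cold storage until they were thawed at 37 °C and grown in DMEM with 10% serum and 1% antibiotic at 5% CO2. Experimental vials, which enter below only for comparison (4 libraries at passage 1 and 3 at passage 6), were in a tank whose liquid nitrogen evaporated within 10 h, were then held at 4 °C for 24 h and at -80 °C for 72 h, and were thawed in the same way. The study sampled passage 1 when the stressed cells had begun to divide quickly again and passage 6 later, with controls taken at the same times, so the control comparison asks what changed between early and later culture without the storage failure. All cells were the same line, with no transgene or deletion named in the labels. The labels do not say whether the 3 libraries of a group came from separate cultures, so every p-value here reflects the spread among these libraries alone, and that spread may be purely technical. The passages were deposited as separate tables, so passage and anything else that differed between the tables cannot be told apart.

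Neuro2a cells descend from the sympathetic nervous lineage, make catecholamine enzymes and store peptides in dense-core granules. Proteins bound for membranes, granules, lysosomes or the outside are made on the endoplasmic reticulum (ER), whose translocon threads the new chain through or into the membrane and whose chaperones fold it. Cytosolic and nuclear proteins are made on free ribosomes and turned over largely by the proteasome, while most mitochondrial proteins are made in the cytosol and imported, and a small set is encoded by mitochondrial DNA.

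Values are FPKM, fragments counted per kilobase of a gene's transcript and scaled to the size of the library, and changes are differences of log2(FPKM + 1), passage 6 minus passage 1. Of the 12662 genes that reached 1 FPKM in 3 or more of the 6 libraries, the limma model with Benjamini-Hochberg adjustment at 0.05 called 10251 (81.0%) as deposited, 3487 (27.5%) higher and 6764 (53.4%) lower at passage 6, and 9670 (76.4%), 4877 (38.5%) higher and 4793 (37.9%) lower, after median-of-ratios scaling, which lines the libraries up on their typical gene. The median gene differed by -0.22 as deposited and by -0.01 after that scaling. A gene is therefore called here, and said to have risen or fallen, only where it passed under both scalings with the same sign, which 8280 genes (65.4%) did, 27.5% higher and 37.9% lower. With so large a background, a group of genes stands out only where its counts leave these shares far behind, and a list's median change is to be read against -0.22. Changes were mostly small, and 853 genes (6.74%) were called with at least a 2-fold change, 434 (3.43%) higher and 419 (3.31%) lower. The groups did not overlap at 10581 genes (83.6%), and at 8252 of the 8280 called genes.

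Across libraries, log2(FPKM + 1) correlated at 0.9895 to 0.9956 within the passage 1 controls, at 0.992 to 0.9942 within the passage 6 controls and at 0.9283 to 0.9398 between them. Of 19 markers of sympathetic neuroblastoma, 16 were at 1 FPKM or more in all 6 libraries. Markers of colon epithelium, a tissue these cells do not belong to, were at 1 FPKM or more in all 6 libraries at 21 of 25 genes and summed to 241.8 to 555.1 FPKM at passage 1 and 135.5 to 312 FPKM at passage 6, with the highest sum in passage 1 control 1. Cartilage markers summed to 12.9 FPKM in that same library and to 39.98 to 63.8 FPKM in the other 5. Liver markers summed to at most 3.48 FPKM in the controls, with 9 of 21 listed at 0 in all 6 libraries. Gene changes were also ordered by transcript length: the median change was -0.46 in the 3154 genes with the shortest exons in sum and -0.04 in the 3154 with the longest. A correction that removes a smooth trend in exon length and GC content from each library, chosen after seeing the data, called 9408 of 12652 genes (74.4%), 3895 (30.8%) higher and 5513 (43.6%) lower, and 7271 (57.5%) passed it as well as both scalings, 3025 (23.9%) higher and 4246 (33.6%) lower. In bulk RNA, fewer cells that express a gene and less of its RNA per cell cannot be told apart.

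**Figure D1:**
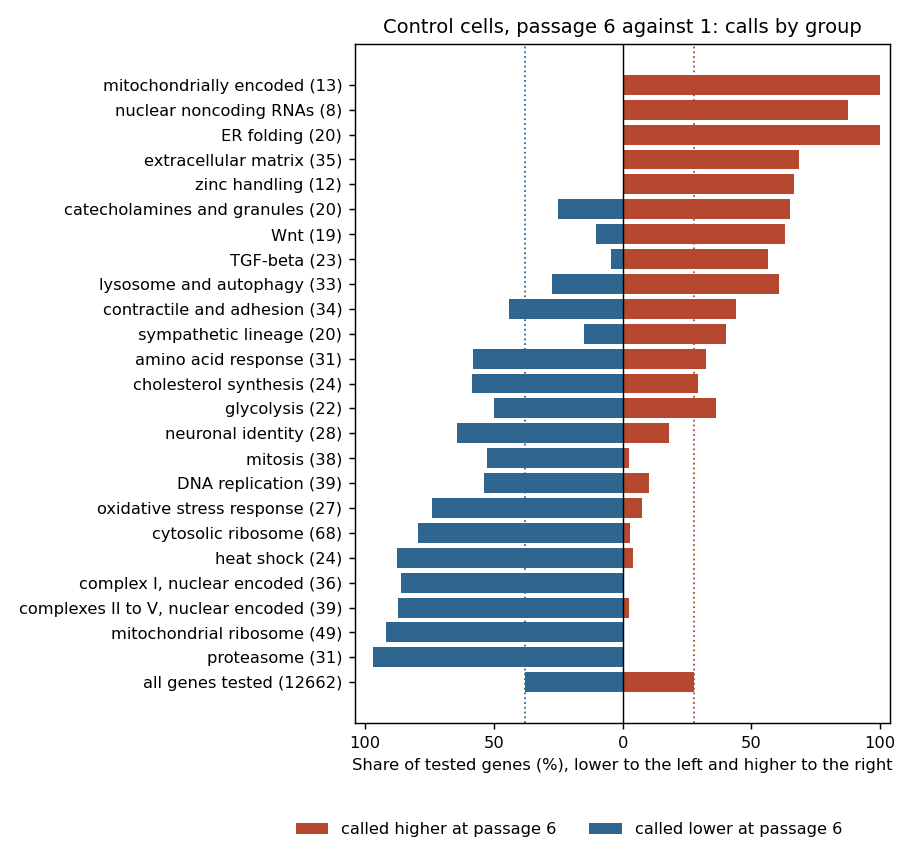
Share of tested genes called higher (to the right) and lower (to the left) at passage 6 in control cells, by gene list, with the number of genes tested in parentheses. Dotted lines mark the shares over all 12662 genes, 27.5% higher and 37.9% lower; all 20 ER folding genes lie to the right, and 30 of 31 proteasome genes to the left.

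All 20 tested genes of the machinery that folds proteins inside the ER rose. Hspa5 (chr2:34771970-34777547 on GRCm38), the ER chaperone also called BiP, stood at 252, 251 and 262 FPKM in the 3 passage 1 libraries and at 609.8, 612 and 582 FPKM in the 3 passage 6 libraries. All passage 6 values lay far above all passage 1 values, and the difference was 1.23 ± 0.029 (SE), a 2.35-fold change on the scale of FPKM + 1 (limma, Benjamini-Hochberg adjusted p = 1.82e-07). Calr, the calcium-binding lectin chaperone calreticulin, went from 276, 282 and 294 to 628, 628 and 591 FPKM. Hyou1, a large ER chaperone that works with Hspa5, went from 73.1, 75.5 and 77.3 to 194, 191 and 188 FPKM. Syvn1, the ubiquitin ligase that disposes of misfolded ER proteins, was far less abundant and went from 8.86, 8.41 and 8.59 to 22.6, 22.5 and 23.2 FPKM. Their changes were 1.12, 1.33 and 1.31, and none of the groups overlapped. Of the 20 tested genes of the list, 20 were called higher and 0 lower, 7 of them at least 2-fold, with a median of 0.84 as deposited and 1.11 after the length and GC correction, under which all 20 remained called. The list covers each step, with the folding enzymes Pdia4 (1.27) and Pdia6 (1.05), the luminal chaperone Hsp90b1 (1.09) and the retrotranslocation partner Sel1l (0.91). It also holds the sensor Atf6 (0.65) and the transcription factor Xbp1 (0.66).

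Promoters of this list were read from RefSeq's table for GRCm38.p6, which held 18 of the list's 21 members. The ER stress response element, searched on both strands as CCAAT and CCACG with 9 bases of any kind between them, is the site through which ATF6 with the CCAAT factor NF-Y is known to act; it was chosen after the rise of the list had been seen. It lay in a promoter of 9 of the 18 genes (Calr, Canx, Creld2, Derl3, Dnajc3, Hsp90b1, Hspa5, Pdia6 and Syvn1), against 37 of all 32851 promoters of the same length (0.113%). List members were counted once per gene, with a match in any of its promoters, and the background was counted per promoter. The shares are therefore not in like units. Of the 17 genes called higher, 8 held it, and Derl3 was not tested. Every tested gene of the list rose, with the element or without it, so these counts cannot tie the element to the rise. Motifs set by rule for other lists, counted in the same way, also exceeded their share of all promoters, in lists with more falls than rises too. CCAAT lay in 23 of 30 mitosis genes (33.8% of all promoters) and TTTCCCGC or TTTGGCGC in 6 of 30 replication genes (1.3%). TTCNNGAA lay in 5 of 22 heat shock genes (7.17%) and TGACNNNGC in 6 of 23 of oxidative stress (10.2%). GGAATG lay in 10 of 16 targets of the regulator YAP (12.6%) and TGCACNC in 4 of 13 genes of zinc handling (10.4%). A match is a description of the sequence and does not show that the site was used. The 250 bases before the RefSeq start of 4 genes whose values are given above follow, 5′ to 3′ along the gene's strand. The element is in capitals, once in 3 of these genes and at 2 places in Hsp90b1. For Hspa5, part of the stretch, with the element, lies inside the GENCODE gene coordinates given earlier.
Hspa5, chr2:34771840-34772089, + strand: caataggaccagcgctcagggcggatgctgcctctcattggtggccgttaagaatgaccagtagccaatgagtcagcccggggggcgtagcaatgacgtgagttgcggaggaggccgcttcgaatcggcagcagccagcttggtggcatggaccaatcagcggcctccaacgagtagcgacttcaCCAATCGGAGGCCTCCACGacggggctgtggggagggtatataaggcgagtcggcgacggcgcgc
Hsp90b1, chr10:86705445-86705694, - strand: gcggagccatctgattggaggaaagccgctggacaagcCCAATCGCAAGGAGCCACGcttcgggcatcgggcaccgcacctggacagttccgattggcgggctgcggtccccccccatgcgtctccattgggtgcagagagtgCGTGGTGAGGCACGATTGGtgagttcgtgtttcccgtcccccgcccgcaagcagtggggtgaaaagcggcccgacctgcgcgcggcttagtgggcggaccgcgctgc
Calr, chr8:84846932-84847181, - strand: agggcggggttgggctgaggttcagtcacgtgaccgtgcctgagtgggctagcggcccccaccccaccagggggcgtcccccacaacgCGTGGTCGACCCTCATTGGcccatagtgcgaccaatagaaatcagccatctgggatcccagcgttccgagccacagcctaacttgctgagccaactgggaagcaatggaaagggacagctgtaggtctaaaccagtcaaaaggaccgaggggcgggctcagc
Syvn1, chr19:6046326-6046575, + strand: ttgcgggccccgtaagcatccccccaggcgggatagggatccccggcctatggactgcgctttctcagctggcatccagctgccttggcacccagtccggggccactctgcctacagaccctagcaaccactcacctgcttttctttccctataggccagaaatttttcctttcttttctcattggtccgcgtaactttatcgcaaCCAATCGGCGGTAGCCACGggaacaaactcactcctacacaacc

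The membrane gate of the ER moved in parts. Among 27 tested genes of the translocon, the signal peptidase, the signal recognition receptor and the oligosaccharyltransferase that adds sugar chains, a set gathered after values had been seen, 22 rose and 3 fell. The channel-forming subunits Sec61a1 (1.03) and Sec61a2 (1.04) and the transferase subunits Rpn1 (1.13), Rpn2 (1.14) and Stt3a (1.00) were among the largest rises. The small translocon subunits went the other way: Sec61b stood at 33.4, 33.8 and 33.2 FPKM at passage 1 and 15.5, 18.4 and 17.9 FPKM at passage 6, and Sec61g at 10.3, 10.2 and 10.2 and 5.24, 5.58 and 5.28 FPKM. The groups of both genes were apart, with passage 6 lower, and the changes were -0.92 and -0.82. Krtcap2, a small transferase subunit, was the other gene that fell (-0.34), and with the length and GC correction 2 of the 3 remained called lower. The cytosolic coat of Golgi vesicles, COPI, did not share the rise: of 9 tested subunits 1 was called higher, Copg1 at 0.09, and 4 lower, led by Copz1 at -0.96.

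The proton pump of lysosomes and granules, the V-ATPase, split along its structure. Its membrane sector V0 with the accessory subunits, 10 genes, had 7 called higher and 1 lower, and its cytosolic sector V1, 8 genes, had none called higher and all 8 called lower. Atp6ap1, an accessory subunit in the membrane, went from 57.2, 59.6 and 56.9 to 96.6, 93.96 and 97.1 FPKM, and Atp6v0a1, of the proton path, from 39.3, 40.7 and 41.7 to 56.6, 55.4 and 55.95 FPKM. Atp6v1g1 (chr4:63544772-63550750), of the V1 stalk, went from 80.8, 80.1 and 74.6 to 26.3, 27.7 and 30.5 FPKM, with all passage 6 values below all passage 1 values and a change of -1.45 ± 0.057. The catalytic V1 subunit Atp6v1a fell by 0.73. The single V0 gene that fell, Atp6v0d1 (-0.83), codes for the V0 subunit that lies on the cytosolic face and does not span the membrane. The medians of the sectors were 0.36 and -0.88 as deposited and 0.52 and -0.67 with the length and GC correction, under which the counts of called genes stayed at 7 higher and 1 lower in V0 and 8 lower in V1. This set too was gathered after values had been seen.

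**Figure D2:**
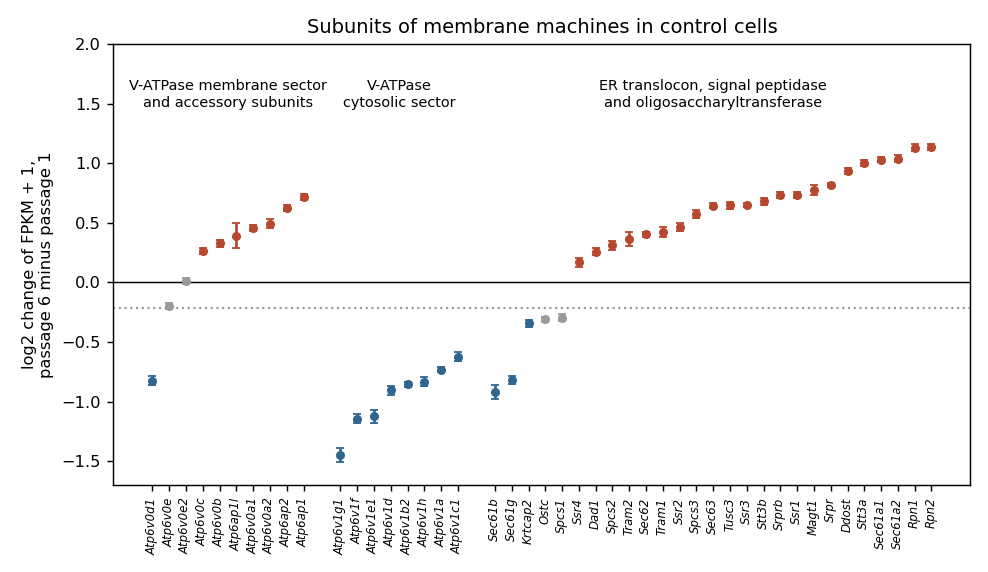
Change of each subunit between passage 6 and passage 1 in control cells (log2 of FPKM + 1), with its standard error from limma; red points were called higher, blue points lower and grey points neither, and the dotted line is the median of all genes, -0.22. All 8 subunits of the cytosolic V-ATPase sector lie below 0, while 22 of 27 subunits of the ER machinery rose.

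Lysosomal contents and the autophagy proteins that act from the cytosol parted in a like way. Of 33 tested genes, 20 rose and 9 fell. Psap, the precursor of the saposins that help lysosomal enzymes reach their lipids, went from 481, 489.7 and 497 to 1040.0, 1025 and 1004 FPKM. Npc1, the lysosomal membrane exporter of cholesterol, went from 4.89, 5.02 and 5.19 to 12.7, 12.5 and 11.8 FPKM. The protease Ctsd (0.86) and the acid glucosidase Gaa (1.05) also rose. Gabarap, which coats autophagosomes, went from 67.3, 68.5 and 61.6 to 27.3, 28.2 and 30.2 FPKM, and its relatives Gabarapl2 (-1.14) and Map1lc3b (-0.79), the conjugation factor Atg5 (-0.98) and the receptor Sqstm1 (-0.75) fell with it. Values of the groups did not overlap for any of the genes named here. All 9 genes that fell act in autophagy, and the 20 that rose code for lysosomal enzymes, their cofactors or lysosomal membrane proteins, apart from the autophagy kinase Ulk1 (0.45).

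Extracellular matrix genes rose in 24 of 35 cases and fell in none. Lama5 (chr2:180176373-180225859), a laminin chain of basement membranes, stood at 2.47, 2.48 and 2.595 FPKM at passage 1 and at 12.6, 11.6 and 11.5 FPKM at passage 6. Its groups were far apart, with a change of 1.88 ± 0.045 (adjusted p = 1.82e-07). Fibronectin (Fn1), which links cells to their matrix, went from 48.1, 61.04 and 61.1 to 165, 164 and 169 FPKM, and passage 1 control 1 was the lowest library. Of the 24 that rose, 18 did so at least 2-fold, and the list had a median of 1.02. They included the other laminin chains Lamb2 (1.61), Lama4 (1.55) and Lamc1 (1.36), the basement membrane collagens Col4a1 (1.46) and Col4a2 (1.29), the heparan sulfate proteoglycans Hspg2 (1.53) and Agrn (1.43), and the collagen-modifying enzymes Plod1 (1.49), Plod2 (1.26) and P4ha1 (1.38). The fibrillar collagens of connective tissue were not among them: Col1a1 stood at 0.0469, 4.65 and 4.29 FPKM at passage 1 and 2.24, 2.66 and 4.92 FPKM at passage 6, and Col1a2 at 0.0255, 2.71 and 2.62 and 1.302, 1.77 and 2.74 FPKM. Passage 1 control 1 was near 0 for both, as it was low for the cartilage markers, and neither gene was called. Without that library, 24 matrix genes were again called higher and 0 lower.

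Genes named for integrins, receptors that hold cells to this matrix, mostly rose, while contractile and adhesion genes were evenly split. Among 14 genes named for integrins, 12 rose, led by Itga3 (1.23, from 2.99, 2.21 and 1.87 to 6.79, 6.32 and 7.31 FPKM), and the 2 that fell, Itgb1bp1 (-0.84) and Itgb3bp (-0.61), code for proteins that bind integrins from inside the cell. In the list of contractile and adhesion genes 15 of 34 rose and 15 fell. Actg1, a cytoplasmic actin, stood at 1203, 1212 and 1197 FPKM at passage 1 and 632, 636 and 635 FPKM at passage 6, and the tropomyosin Tpm4 (-0.86), the myosin light chain Myl9 (-1.01) and Tagln2 (-1.11) also fell, with no overlap of the groups. Vinculin (Vcl, 1.15) and the filamin Flnc (1.23), a large linker of actin to the membrane, rose. Of 18 plexins and semaphorins, receptors and ligands of axon guidance that were gathered after values had been seen, 16 rose, up to 1.41 for Plxnb2, and 0 fell.

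Carriers of nutrients across the plasma membrane made up 3 of the 14 largest rises named by rule. Slc38a2 (chr15:96687392-96699730), an importer of small neutral amino acids, stood at 42.4, 44.1 and 44.1 FPKM at passage 1 and 166, 164 and 163 FPKM at passage 6. The change was 1.89 ± 0.023 (adjusted p = 1.71e-07), the largest rise of a protein-coding gene among those named by rule. The glucose carriers Slc2a1 and Slc2a3 went from 14.2, 13.1 and 13.3 to 41.8, 41.6 and 42.5 FPKM and from 19.7, 20.6 and 20.3 to 63.5, 66.1 and 63.4 FPKM, and Slc16a3, which exports lactate, from 50.1, 52.7 and 52.5 to 182, 185 and 182 FPKM. For each of them every passage 6 value lay above every passage 1 value. Outside the mitochondrial Slc25 family, 132 of 154 tested solute carrier genes rose and 2 fell, with a median of 0.51. Of those that fell, Slc4a1ap (-0.74) is named for binding a carrier, and Slc35a4 (-0.53) belongs to the nucleotide sugar carriers. Mitochondrial carriers of the Slc25 family showed the opposite balance, 4 higher and 19 lower of 35, with the ADP/ATP carrier Slc25a4 at 384, 397 and 392 FPKM at passage 1 and 184, 184 and 184 FPKM at passage 6. Of 18 ABC transporters 14 rose and 1 fell, the latter the peroxisomal Abcd3 (-0.35). These families were gathered after values had been seen. Of 12 tested genes of zinc handling 8 rose and 0 fell: all 8 are membrane carriers, such as Slc39a10 (0.94), while the metallothioneins Mt1 (3.600, 1.95 and 2.83 against 1.74, 1.35 and 2.08 FPKM) and Mt2 (2.97, 1.43 and 2.34 against 1.09, 0.716 and 1.49 FPKM) were not called.

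The amino acid response, glycolysis and hypoxia lists held changes in both directions. In the amino acid response, the set of targets of the transcription factor ATF4, 10 of 31 rose and 18 fell. Of the 10 that rose, 8 were amino acid carriers, among them Slc1a4 (1.2), Slc7a1 (1.12) and Slc3a2 (1.00), and the others were Sesn2 (0.25) and Ppp1r15a (0.3). The enzymes and transfer RNA synthetases of the same list fell: Psph of serine synthesis (-0.9), Mthfd2 of mitochondrial folate metabolism (-0.88), Asns of asparagine synthesis (-0.69) and Sars (-0.86). Atf4 itself stood at 271, 274 and 256 FPKM at passage 1 and 195, 195 and 197 FPKM at passage 6 and fell by 0.44. In glycolysis the carriers named above rose and soluble enzymes such as Tpi1 (-0.77), Pgam1 (-0.66) and Ldha (-0.58) fell, 8 higher and 11 lower of 22 gene identifiers, with Gapdh among the small rises (0.2). In a single fit of all 13 libraries the glycolysis counts were 5 higher and 5 lower. Among hypoxia-inducible genes 8 rose and 7 fell of 19. P4ha1 and P4ha2, the collagen prolyl hydroxylases of the ER, rose by 1.38 and 1.23, the secreted peptide Adm by 1.03, while the stress gene Ddit4 fell by 1.01. Carbonic anhydrase Car12, in the plasma membrane, rose by 0.98.

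Cholesterol synthesis held 5 of the 14 largest falls named by rule. Idi1 (chr13:8885501-8892451), the isomerase that makes the dimethylallyl building block of sterols, stood at 28.03, 28.5 and 26.5 FPKM at passage 1 and 5.43, 6.19 and 6.53 FPKM at passage 6. The groups were far apart, and the gene fell by 2.03 ± 0.062 (adjusted p = 2.79e-07). Hmgcs1, the synthase at the entry of the pathway, went from 40.03, 38.6 and 37.5 to 10.05, 11.2 and 10.98 FPKM, and Fdps, which makes farnesyl diphosphate, from 42.4, 41.02 and 41.02 to 12.3, 13.9 and 12.6 FPKM. Acat2 (-1.54), Mvd (-1.5) and Pmvk (-1.27), soluble enzymes on either side of mevalonate, and Stard4 (-1.26), a soluble sterol carrier, fell too. Of 24 tested genes 14 fell, 9 of them at least 2-fold, and 7 rose. Those that rose included Srebf2 (0.17), a membrane-anchored regulator of the pathway. Insig1, which holds that regulator in the ER, fell by 0.37. A sterol regulatory element was spelled TCACNCCAC and chosen after values were seen. It lay in a promoter of 1 of the 17 list genes that RefSeq's promoters held, Hmgcs1, against 1.05% of all promoters.

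**Figure D3:**
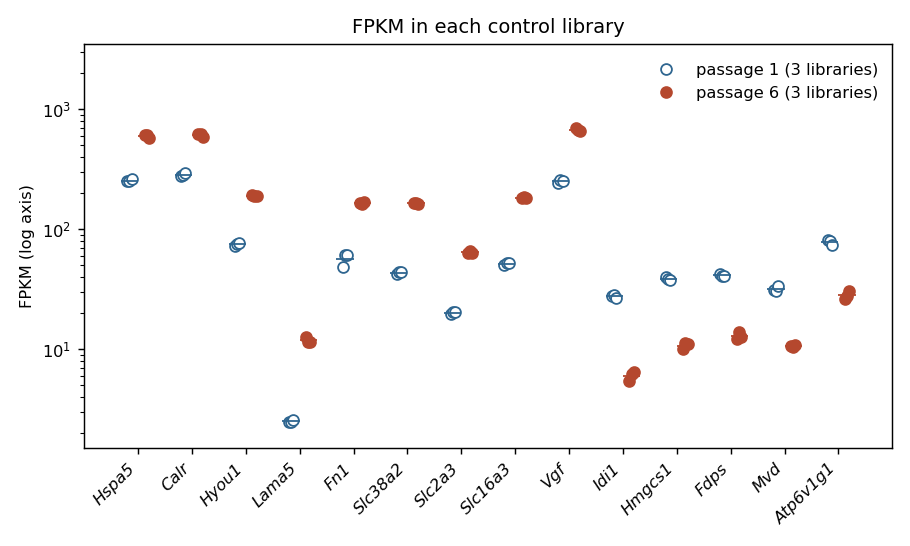
FPKM of 14 genes in each control library on a log axis, with open blue points for passage 1, filled red points for passage 6 and a line at each group's mean. The 3 libraries of a passage lie close together for every gene drawn; the first 9 genes rose and the last 5, from Idi1 (27.7 to 6.05 FPKM on average) to Atp6v1g1, fell.

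The granule and catecholamine list mixed both directions. Vgf, a granule peptide precursor that growth factors induce, went from 242, 256 and 253 to 698, 669.7 and 659 FPKM, and the granins Chga and Chgb, which pack the granules, rose by 1.19 and 1.25. Dbh, which turns dopamine into noradrenaline inside the granule, went from 3.096, 3.21 and 2.92 to 8.59, 7.89 and 8.57 FPKM, and the granule carrier of monoamines Slc18a2 rose by 0.97. Th, the cytosolic enzyme that limits catecholamine synthesis, went the other way, from 10.5, 11.3 and 11.5 to 6.16, 6.54 and 5.44 FPKM, as did Gch1 (-0.68) and Qdpr (-1.34), which make and recycle its cofactor. None of these genes had overlapping groups. Of 20 tested genes, 13 rose and 5 fell.

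Receptors and transcription factors of the sympathetic lineage also parted. Ret, a receptor of glial-derived growth factors, stood at 82.5, 87.3 and 85.4 FPKM at passage 1 and 194, 186 and 186 FPKM at passage 6. Ngfr (1.08), a receptor of nerve growth factor, and Alk (0.93), a receptor kinase often mutated in neuroblastoma, rose as well. The lineage factors Phox2a (-0.89), Hand2 (-0.46) and Isl1 (-0.33) fell, while Mycn (6.53, 7.97 and 8.57 against 7.403, 8.03 and 8.57 FPKM) was not called. Of the 20 genes of the list 8 rose and 3 fell, shares of 40% and 15% beside 27.5% and 37.9% of all genes. Neuronal identity genes mostly fell, 18 of 28 against 5 that rose. Gap43, of the growth cone, went from 75.4, 73.3 and 74.98 to 33.1, 35.9 and 33.6 FPKM, and the tubulin Tubb3 fell by 0.9 and the tubulin-binding Stmn2 by 0.82, while the adhesion molecules L1cam (1.24) and Ncam1 (1.26) and the intermediate filament Nes (1.06) rose. At the synapse, 11 of 26 rose, led by the glutamate receptor subunit Grin1 (1.28) and the vesicle proteins Syp (0.95) and Sv2a (0.9), and 6 fell, led by Cplx1 (-1.07) and Syn2 (-1.02), which bind vesicles or their fusion machine from the cytosol. With the length and GC correction the synapse counts were 10 higher and 10 lower, with a median of -0.08.

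In the Wnt and TGF-beta lists more genes rose than fell, and the small Notch list held changes in both directions. In the Wnt list 12 of 19 rose, among them the receptors Lrp5 (1.32), Lgr5 (0.89) and Fzd7 (0.78), and the 2 that fell were the cytosolic Ctnnb1 (-0.6) and Gsk3b (-0.46). Ctnnb1, beta-catenin, stood at 72.2, 73.04 and 73.5 FPKM at passage 1 and 45.5, 48.9 and 48.7 FPKM at passage 6, with no overlap. In the TGF-beta list 13 of 23 rose, with the latent-complex protein Ltbp3 (1.06), the protease Bmp1 (0.95) and the receptors Acvr1 (0.89) and Tgfbr1 (0.81), and only Smad4, the shared nuclear mediator, was called lower in it (-0.37). In the Notch list the ligand Jag2 (1.23), the glycosyltransferase Lfng (1.18) and the receptor Notch2 (0.94) rose and the nuclear factors Hes6 (-0.59) and Hey1 (-0.44) fell, 4 and 2 of 11 in all. With the length and GC correction the Notch counts were 4 higher and 4 lower.

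Transcripts of the mitochondrial genome took a larger share of FPKM at passage 6. They came to 14.7%, 14.8% and 14.5% of summed FPKM in the 3 passage 1 libraries and to 27.4%, 27.1% and 27.4% in the 3 passage 6 libraries. The groups did not overlap (exact two-sided permutation p = 0.1, the smallest that 3 against 3 libraries allow, and 0.2 after adjustment over 10 library measures). All 13 protein genes of that genome were called higher, from 0.52 for mt-Nd6 to 1.22 for mt-Cytb, as were both of its ribosomal RNAs, mt-Rnr1 (1.14) and mt-Rnr2 (1.18). With quantile normalization, which forces all libraries to 1 distribution, 5 of the 13 were called higher, and mt-Cytb was not among them. mt-Cytb, of complex III, stood at 6061, 6124 and 5822 FPKM at passage 1 and 13752, 14216 and 13999 FPKM at passage 6.

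The nuclear genes for the same respiratory complexes fell. None of 36 complex I genes was called higher and 31 were called lower, and of 39 genes for complexes II to V with cytochrome c 1 was called higher, Cox6a1 (0.44), and 34 lower. Ndufa8, a subunit of complex I, went from 107, 112 and 107 to 48.1, 50.2 and 55.6 FPKM, and Cycs, cytochrome c, from 56.02, 52.8 and 54.96 to 22.9, 23.6 and 23.8 FPKM, with no overlap. The medians were -0.68 and -0.65 as deposited and -0.33 and -0.3 with the length and GC correction, under which 28 and 32 remained called lower. Of 49 proteins of the mitochondrial ribosome 45 fell and none rose, and of 16 genes of the tricarboxylic acid cycle 12 fell and 1 rose. Of 28 genes for the upkeep and expression of mitochondrial DNA 6 rose and 9 fell, with a median of -0.25. The polymerase that transcribes the mitochondrial genome, Polrmt, went from 11.4, 10.96 and 11.2 to 24.2, 24.4 and 23.9 FPKM and rose by 1.05, and the replicating polymerase Polg by 0.62, while Tfam, the packaging factor of mitochondrial DNA, fell by 0.48. Mrpl53 (chr6:83109040-83109939), which was on no list, had the largest fall of the genes named by rule: it stood at 41.01, 35.8 and 36.1 FPKM at passage 1 and 2.56, 8.67 and 9.14 FPKM at passage 6, and passage 6 control 1 was far below the other 2. Its change was -2.45 ± 0.38 (adjusted p = 7.20e-04).

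Cytosolic machines for making and destroying proteins fell together. Of 68 cytosolic ribosomal proteins 54 fell and 2 rose, and the genes together took 6.61%, 6.62% and 6.73% of summed FPKM at passage 1 and 3.88%, 4.01% and 3.86% at passage 6, with no overlap. Rpl6 went from 348, 348 and 336 to 173, 162 and 176 FPKM. The 2 that rose were Rpl30 (0.49) and Rpl10a (0.16). The median of the list was -0.68 as deposited and -0.33 with the length and GC correction. That correction by itself called 9 of these genes higher and 53 lower, and 52 of the 54 remained called lower. Ribosomal protein genes often have near-identical copies, so how reads were shared out can affect the values of those that rose and those that fell. This was not tested. All but 1 of the 31 proteasome genes fell, with a median of -0.79 (-0.46 with the length and GC correction), and none rose. Psmb5, a catalytic subunit, went from 73.1, 73.6 and 73.8 to 34.6, 38.5 and 35.5 FPKM, and all its passage 6 values lay below all its passage 1 values. Of 32 genes named Ube2, the enzymes that hand ubiquitin to its targets, 30 fell and 2 rose. All 7 tested subunits of the chaperonin CCT fell, from -0.92 for Cct8 to -0.48 for Tcp1, as did 23 of 28 genes named for the initiation factors eIF2 and eIF3. The single gene of that set called higher was Eif2ak3, an ER membrane kinase (0.83). The Ube2, CCT and eIF sets were gathered after values had been seen. Heat shock genes that act outside the ER fell in 21 of 24 cases, led by Dnajb1 (35.8, 37.6 and 36.95 against 14.2, 12.4 and 13.9 FPKM), Ahsa1, an activator of the chaperone HSP90 (-1.04), and Hspe1, the mitochondrial co-chaperonin (-1.01), and only their regulator Hsf1 was called higher (0.24).

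Stress and growth lists differed in their balance. Among genes of the oxidative stress response 20 of 27 fell and 2 rose; the peroxidases Prdx2 (-1.12) and Prdx3 (-1.04) fell most, and Gclc (0.31), which limits glutathione synthesis, was one of those that rose. Prdx2 stood at 109, 106 and 101 FPKM at passage 1 and 49.4, 47.4 and 47.2 FPKM at passage 6, with the groups apart. Of 13 p53 targets 8 fell, among them Cdkn1a, the cell cycle inhibitor p21 (-0.71), and 1 rose, the stress cytokine Gdf15 (0.85). Mitosis genes fell in 20 of 38 cases and rose in 1, and replication genes fell in 21 of 39 and rose in 4. Their medians, -0.35 and -0.36, lay near the -0.22 of all genes, and with equal summed FPKM the counts of lower genes were 32 and 33. Ube2c, which marks mitotic proteins for destruction, went from 51.97, 51.8 and 49.2 to 26.7, 26.5 and 28.01 FPKM, and Pcna, the sliding clamp of replication, from 106, 106 and 103.8 to 62.5, 65.04 and 62.3 FPKM. Immediate early genes fell in 16 of 33 cases, led by Egr1 (33.96, 34.4 and 36.1 against 16.3, 17.5 and 17.98 FPKM), and rose in 5, with Myc at 0.37. The share that fell was 48.5% beside 37.9% of all genes, and the list's median, -0.37, also lay near -0.22. Of 11 cold-inducible genes 5 rose, led by the kinase Clk1 (0.84), Rtn3 (0.62) and the splicing factor Srsf10 (0.55), and 2 fell, Rbm3 and Srsf5 (-0.43). The RNA-binding protein Rbm3 went from 115, 113 and 111 to 52.7, 56.1 and 56.6 FPKM and fell by 1.02, and Cirbp (26.6, 27.2 and 24.8 against 19.1, 21.3 and 20.1 FPKM) was not called. Chromatin enzymes rose in 19 and fell in 12 of 51 cases, and the length and GC correction turned that balance to 10 higher and 29 lower.

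Immune, noncoding and imprinted genes gave smaller sets. The antigen-presenting genes H2-D1 (89.6, 87.5 and 86.4 against 152, 152 and 147 FPKM), H2-K1 (0.68) and Tap1 (0.9) rose and the ubiquitin-like Isg15 fell (-0.97), in a list of interferon-inducible genes with 7 of 17 higher and 2 lower. Without passage 1 control 3, 4 of that list were called higher. The chemokine Cxcl1 went from 53.7, 57.9 and 56.1 to 104.1, 106 and 105 FPKM and rose by 0.9, and Csf1, a growth factor of macrophages, rose by 0.85. Both come from a list of cytokines and targets of the transcription factor NF-kB, in which 4 of 13 rose and 2 fell. These shares were 30.8% and 15.4%, beside 27.5% and 37.9% of all genes, and the median was -0.01. Rela was one of those that fell (-0.61). Of 8 nuclear noncoding RNAs, 7 rose and none fell, with Malat1 at 0.33 and Neat1 at 0.2, and of 13 host genes of small nucleolar RNAs 7 rose, led by Snhg15 (1.23) and Snhg17 (1.17), and 1 fell. Among imprinted genes Mest, a gene expressed from the paternal copy, rose from 270.0, 287 and 285 to 453, 442 and 452 FPKM and Snrpn fell by 1.00. Outside the lists, Vwa1, a matrix protein of basement membranes, went from 2.84, 3.36 and 3.295 to 12.5, 12.1 and 12.2 FPKM. The genes with the largest falls outside the lists code for small or soluble proteins, such as Selenow, a selenoprotein (61.2, 66.8 and 65.9 against 20.7, 23.3 and 21.5 FPKM), Idh1, the cytosolic isocitrate dehydrogenase (-1.44), the centrin Cetn3 (-1.38) and the calmodulin-binding peptide Pcp4 (-1.49). Of the 14 largest rises named by rule, 7 carry the name of a short RNA inside an intron. Mir6910, in an intron of Ptbp1, went from 1.51, 2.35 and 2.18 to 12.2, 12.9 and 17.04 FPKM, Mir6991, in an intron of 2700081O15Rik, from 2.96, 2.55 and 2.51 to 14.5, 19.3 and 14.2 FPKM, and Snord59a, in an intron of Atp5b, from 2.01, 2.37 and 1.18 to 13.96, 12.1 and 12.2 FPKM. The length and GC correction lowered their fold changes from 4.98, 4.602 and 4.896 to 2.53, 2.37 and 2.73, and all 3 remained called. In poly(A) libraries the reads of such a short gene and those of the host intron cannot be told apart, and no change of the mature short RNA is read from these values.

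Several lists divided by where their proteins sit, and the coding sequences themselves were therefore examined, a description chosen after the values were seen and carrying no test. For 10802 tested nuclear protein-coding genes, the most hydrophobic stretch of 19 codons was scored by its mean Kyte-Doolittle value, a scale on which membrane spans and signal peptides score high. The score was at least 1.6 in 32.2% of genes. Of those 3481 genes 1815 (52.1%) were called higher and 559 (16.1%) lower, and of the 7321 others 1088 (14.9%) were called higher and 3604 (49.2%) lower. The medians of the classes were 0.19 and -0.35 as deposited, and 0.27 and -0.21 with the length and GC correction. The shares were ordered over the whole range of scores: 7.86% were higher and 64.2% lower below 0.8, 20% and 39.5% between 1.2 and 1.6, and 68.6% and 6.88% at 2.4 and over. Of 264 of these genes that rose at least 2-fold, 230 (87.1%) had such a stretch, and of 343 that fell at least 2-fold, 32 (9.3%) had it. Lists differed in how far they divided. In the amino acid response 9 of 9 genes with a stretch rose, and of 22 without it 1 rose and 18 fell. In the synapse list 11 of 15 with a stretch rose and none fell, against 0 and 6 of 11 without. In cholesterol synthesis all 8 genes without a stretch fell, and of 16 with it 7 rose and 6 fell. In glycolysis 6 of 10 genes with a stretch rose and 4 fell, against 2 and 7 of 12 without. Chromatin enzymes showed little division, with 4 of 8 higher and 2 lower with a stretch and 15 and 10 of 43 without. Both proteasome genes with a stretch fell, as did 28 of 29 without. In the tricarboxylic acid cycle 3 of 4 with a stretch and 9 of 12 without fell, and the median was lower with it (-0.7 against -0.55).

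**Figure D4:**
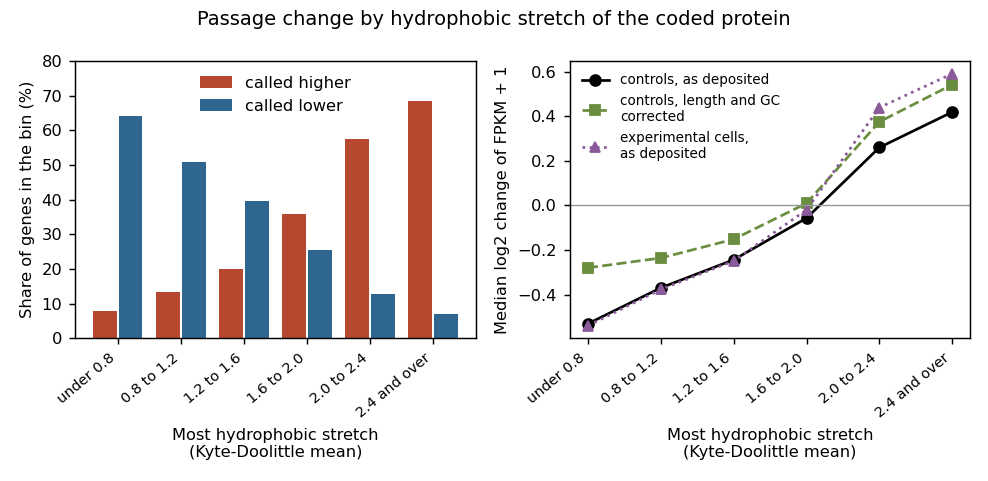
Passage change in control cells by the most hydrophobic stretch of the coded protein (highest mean Kyte-Doolittle value over 19 codons), for 10802 genes in 6 bins. Left, the share of each bin called higher and lower, from 7.86% and 64.2% in the lowest bin to 68.6% and 6.88% in the highest; right, the median log2 change as deposited, after the length and GC correction and in the experimental cells, all rising from bin to bin.

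Some families did not follow that order. Mitochondrial carriers of the Slc25 family span a membrane and mostly fell, as given above, and so did nuclear respiratory subunits with a stretch, of which 5 of 7 in complex I and 10 of 14 in complexes II to V fell. Of the small translocon subunits that fell, Sec61g scored 2.24 and counts as having a stretch. Sec61b, which belongs to the same membrane channel, scored 0.895 and counts as without, so membrane proteins can be placed in the class without. Only the longest coding sequence of each gene was scored. Whether that of Sec61b includes its membrane span was not checked. Matrix genes without a stretch by this score rose about as often as those with it, 9 of 14 and 15 of 21, but their median was lower (0.65 against 1.16). Of 277 tested zinc finger genes named Zfp, nuclear proteins as a rule, 65 rose and 46 fell, with a median of -0.1.

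The experimental cells, which share no library with the controls but share the 2 tables, were set beside them. Between passages 1 and 6 the model called 2912 of 12471 tested genes (23.4%) higher and 3877 (31.1%) lower in experimental cells under both scalings, 54.4% in all. Of 12186 genes tested in both kinds of cells, 5680 were called with the same sign in both, 70.5% of the control calls and 85.1% of the experimental calls, and 24 were called with opposite signs. The ER folding genes rose in 20 of 20 cases in controls and in 19 in experimental cells, the mitochondrially encoded genes in 13 of 13 in both, and proteasome genes fell in 30 and 26 of 31. The difference between the passage changes was tested in 1 model of all 13 libraries, where a factor common to all columns of a table cancels. It was called for 1914 of 13137 genes (14.6%), 815 (6.2%) higher in controls and 1099 (8.37%) lower.

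**Figure D5:**
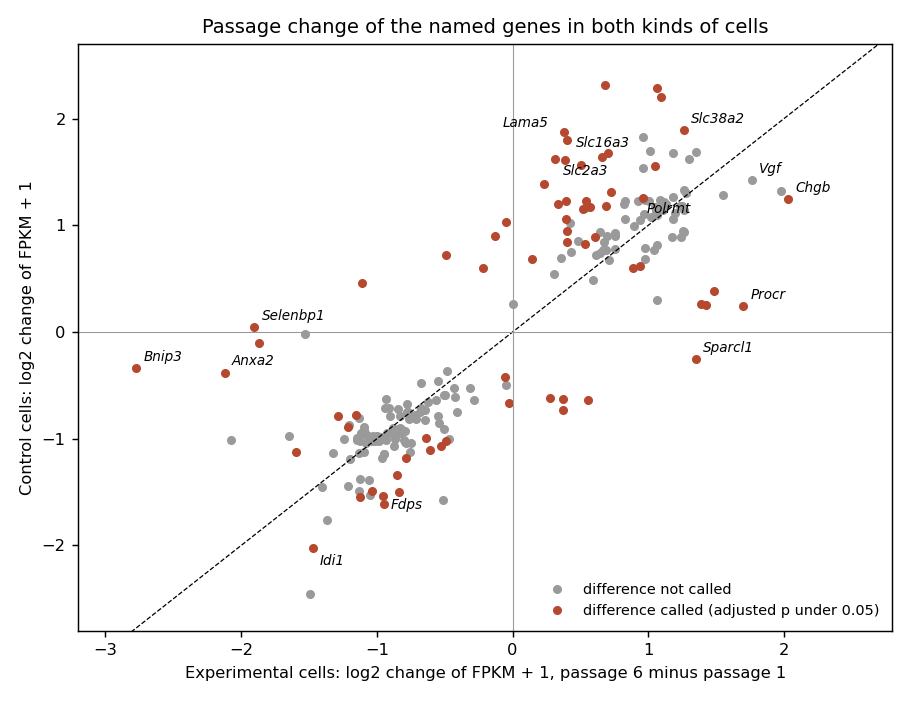
Passage change of the 216 named genes tested in both kinds of cells, experimental cells on the x axis and controls on the y axis (log2 of FPKM + 1, passage 6 minus passage 1), with the line of equal change dashed. Red points are the 66 genes whose change differed between controls and experimental cells in the limma contrast.

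Differences toward a more positive change in controls were frequent in the glycolysis, hypoxia and matrix lists. Of 22 glycolysis genes 13 had a passage change that was higher in controls and 0 a lower one, of 19 hypoxia genes 11 and 1, and of 35 matrix genes 12 and 1, beside 6.2% and 8.37% of all genes. Slc16a3 changed by 1.8 in controls and by 0.4 in experimental cells, where it stood at 133, 99.3, 151 and 134 FPKM at passage 1 and 167, 169 and 171 FPKM at passage 6. The difference was 1.4 ± 0.15. Lama5 changed by 0.38 in experimental cells, with a difference of 1.5, and P4ha1 by 0.23, with a difference of 1.15. All 3 were named for the size of their change in controls, which favours such a difference, and the lists were drawn up with earlier results known, so these values and counts are a description. Bnip3, a mitochondrial protein induced by low oxygen, was not called in controls (16.1, 17.4 and 15.6 against 11.6, 13.4 and 13.2 FPKM) and went from 60.7, 28.7, 92.7 and 70.4 to 8.09, 6.904 and 7.99 FPKM in experimental cells. Its difference, 2.44 ± 0.4, was the highest of the genes named and is what it was named for.

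Mitosis, immediate early and contractile genes also differed mostly in that direction, 16 of 38, 16 of 33 and 13 of 34 with none lower in any of the 3 lists, the fall in controls being the smaller one in such genes as Ube2c (-0.89 against -1.21) and Dusp6 (-0.78 against -1.29). Differences in the other direction were found in 16 of 33 lysosome and autophagy genes and 13 of 24 cholesterol genes. The cholesterol genes Idi1, Fdps and Mvd fell in both kinds of cells and further in controls, with -2.03, -1.61 and -1.5 against -1.47, -0.95 and -0.84 and differences of -0.55, -0.66 and -0.66, and they too were named for their change in controls. Myb, a transcription factor of blood progenitors, went from 8.96, 8.45 and 8.83 to 5.04, 4.73 and 4.86 FPKM in controls and from 2.57, 2.58, 2.55 and 2.05 to 3.86, 3.35 and 3.14 FPKM in experimental cells. It fell by 0.73 in the former, and the difference was -1.1 ± 0.1; it comes from a list of genes best known in blood cells that was drawn up with their low level in experimental cells known, so the difference is a description. The counts of called differences depended on single libraries: leaving out any 1 of the 6 control libraries gave 446 to 507 higher and 702 to 732 lower, and leaving out passage 6 experimental 2 gave 524 higher and 865 lower.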

How the data were processed

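FPKM were deposited by the authors as separate tables for passages 1 and 6. The genome build mm10 and the tools HISAT2, StringTie, cutadapt, edgeR and DESeq2 are named per the submitters' processing notes. Tool versions, and how FPKM were scaled between libraries, are not given in the sources used here. Per the labels' protocols, RNA had an integrity number above 7.0. The tables were joined by Ensembl identifier (34857 genes, 1 with an empty cell left out, 34730 matched to a symbol in GENCODE M21), and all 13 value columns were used. Absolute depth is unknown. From the steps between low FPKM values of 5781 genes, the 6 control libraries differed in relative depth by at most 1.242-fold, and errors rest on the spread within each group of libraries.

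log2(FPKM + 1) of the 6 control libraries was fitted with limma 3.58.1 in R 4.3.3 (intensity trend, two-sided, Benjamini-Hochberg, threshold 0.05), as deposited and after median-of-ratios scaling without mitochondrially encoded genes. A pseudocount of 1 understates the fold change of genes with few FPKM. Length and GC trends were removed with mgcv 1.9.3. Tables, exact tests and figures used Python 3.11.15, numpy 2.4.6, pandas 2.3.3, scipy 1.17.1 and matplotlib 3.10.9. In simulated data with the spread of the controls (12662 genes), 89 of 100 genes with a simulated log2 change of 0.5 and 98 of 100 with a change of 1 were recovered, and 4.59% of calls were false. Only these genes were changed, all drawn from the more abundant ones, with independent noise, no shift between passages and a single fit. In the data most genes were called and 2 scalings were required, so these rates do not give the error of the reported calls. Promoter sequences are from RefSeq (GRCm38.p6), and gene coordinates and coding sequences from GENCODE M21, 1-based on GRCm38.

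Genes named by rule were the 14 largest rises and the 14 largest falls among called genes with a mean FPKM of 5 or more, groups apart from each other and a gene symbol that is not a clone or predicted name, up to 4 called genes of each list with the largest change (or the 2 most abundant where none was called), Rbm3 and Cirbp, and the 6 largest differences from experimental cells in each direction. Other members were picked with their values in view. Values of some members are not reported here. The comparison, the lists and the rule were written with earlier results of these data known. Alternatives were other pseudocounts, filters, scalings and limma settings, the replicate number as a block, 1 fit of 13 libraries and leaving out each library.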

Additional observations from a re-analysis of the deposited data

Results flagged for a closer look

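The results below are passage changes of named genes that differed between control and experimental cells in the limma contrast over 13 libraries (Benjamini-Hochberg adjusted p under 0.05), given as the control change minus the experimental change of log2(FPKM + 1). Of the 28 genes with the largest rises and falls in controls, 15 passed this threshold and 13, among them Hmgcs1, Selenow, Dnajb1, Cetn3 and mt-Tk, did not pass it. Choosing genes by their change in controls favours a difference of the same sign, so the sizes are a description. The change was more positive in controls for Lama5 (1.5), Slc16a3 (1.4), Slc2a3 (1.31), Snord59a (1.23), Mir6991 (1.1), mt-Ti (0.98), Vwa1 (0.97) and Slc38a2 (0.63). It was more negative in controls for Fdps (-0.66), Mvd (-0.66), Cfap298 (-0.59), Idi1 (-0.55), Mrpl36 (-0.45) and Acat2 (-0.42).

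A further set of 12 genes, which shares Mir6910 with the first, was chosen for the difference itself, so its sizes too are a description. The difference was positive for Bnip3 (2.44), Selenbp1 (1.95), Cox4i2 (1.76), Anxa2 (1.74), Mir6910 (1.64) and Mgarp (1.57), and negative for Sparcl1 (-1.61), Procr (-1.46), Nefh (-1.2), Clu (-1.17), Plxnc1 (-1.12) and Camk2a (-1.09). Mir6910 lost its call without passage 6 control 3. Sparcl1 stood at 4.95, 4.68, 5.26 and 5.35 FPKM in the passage 1 and 7.99, 21.02 and 17.6 FPKM in the passage 6 experimental libraries, and brain markers summed to 53.5 and 41.6 FPKM in passage 6 experimental 2 and 3 against at most 12.2 FPKM in the other 11 libraries. Liver markers summed to 279 and 227.8 FPKM in the same 2 libraries against at most 3.48 FPKM elsewhere. The part of these transcripts in the differences was not tested.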

How the results depend on the processing

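Counts of genes higher in controls at passage 6 stayed within 1.5 times the reported 3487 under the alternatives to the deposited FPKM, except with a filter of 5 FPKM, which tests fewer genes and gave 2265 under the deposited scaling and under both. Leaving out each library gave 3336 to 3392 higher and, under both scalings, 4499 to 4627 lower. The share of higher among all calls was 34.0% as deposited, 50.4% after median-of-ratios scaling, 30.7% with equal summed FPKM and 43.8% with quantile normalization. In experimental cells, the genes lower numbered 5885 as deposited and 3877 after median-of-ratios scaling. Libraries with the same replicate number did not deviate together (correlations of 0.008, 0.013 and 0.08), and neither did every library correlate best with its own number. The replicate block gave 3389 higher and 4654 lower under both scalings, and 505 higher and 720 lower differences between controls and experimental cells, beside 815 and 1099 without it. Leaving out 1 of the 13 libraries moved those differences between 446 and 1138 higher and between 702 and 1402 lower. The cause of these shifts was not tested.

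Of the 217 genes named by rule, 1 reversed, Cox4i2, which was not called and stood at 0.32 with the length and GC correction, alone or with the replicate block. Under alternatives other than leaving out a library, 15 genes lost their call, 12 of them in the single fit of 13 libraries, mt-Atp8 and mt-Cytb with quantile normalization. Anxa2, Serpina1b and Wtip lost it when a library was left out. Of the counts of called genes per list, 1412 stayed within 1.5 times their value and 148 moved further over those alternatives. Of the lists described, lower mitosis and replication genes rose to 32 and 33 with equal summed FPKM, and glycolysis fell to 5 higher and 5 lower in the single fit of 13 libraries. Depth limits what can be said of genes near 1 FPKM.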
